A study of Drosophila melanogaster with 16 samples.

Results

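Oxidative phosphorylation makes most of the ATP of an animal cell. Complexes I to IV of the inner mitochondrial membrane pass electrons from NADH and succinate to oxygen and pump protons, and ATP synthase uses the returning protons to make ATP. Most subunits are encoded in the nucleus and imported, while the mitochondrial genome encodes a small set that forms the hydrophobic core of complexes I, III and IV and of ATP synthase. The mitochondrial messages are cut from long transcripts that span many genes, and in animals ATPase8 with ATPase6, and ND4L with ND4, stay joined in one message.

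The genes described here were the protein-coding genes whose FlyBase symbols begin with ND-, UQCR, ATPsyn or COX and a digit, or with mt:ND, mt:Co, mt:Cyt or mt:ATPase. The rule took 93 of the 17753 genes in the tables: 80 in the nucleus and 13 on the mitochondrial genome. Of the nuclear genes, 21 are additional copies whose symbols carry an L (ATPsynbetaL beside ATPsynbeta, for instance), which leaves 59 without them: 34 of complex I, 6 of complex III, 8 of complex IV and 11 of ATP synthase. The rule used symbols and no measured value. It leaves out subunits with other names, such as blw and Cyt-c1, which are described separately.

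Polyadenylated RNA of whole Drosophila melanogaster embryos was measured in 16 libraries. Wild type was the laboratory strain OregonR, aged 14 to 17 h (n = 5, replicates 1, 2, 3, 5 and 6) or 2 to 4 h (n = 3). The mutants carry lesions in Lola-I, an isoform of the transcription factor gene lola, and were aged 14 to 17 h: ORC4 (n = 4) and the transheterozygote ORE50/ORC4 (n = 4), in which the homologues carry unlike mutant alleles. Nothing in the labels says how the replicates were collected, so p-values measure the spread between these libraries. Levels are given as normalised CPM, estimated counts scaled by library total and a TMM factor. Those of the lola gene were 1012 to 1330.4 in late wild-type libraries, 1042 to 1637 in ORC4, 815 to 954 in ORE50/ORC4 and 2558 to 2966 in early wild type. These sum all isoforms and so do not check the mutated one.

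Sequencing depth was uneven. Libraries held 10202589 to 32521618 estimated counts in late wild type, 27298346 to 28832021 in ORC4, 9025847 to 13226251 in ORE50/ORC4 and 14472798 to 31783926 in early wild type. Every ORC4 library lay above 20000000 counts and every ORE50/ORC4 library below, while late wild type 1, 2 and 3 lay above it and 5 and 6 below. Depth class and genotype therefore cannot be told apart between the mutants.

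Nuclear oxidative phosphorylation genes took about the same share of counts in late wild type and ORE50/ORC4, a smaller share in ORC4, and the smallest in early wild type. The 80 nuclear genes held 1.27% ± 0.0767 of the counts of a late wild-type library (SD, n = 5), 1.14% ± 0.0660 in ORC4 (n = 4), 1.28% ± 0.0902 in ORE50/ORC4 (n = 4) and 0.587% ± 0.0175 in early wild type (n = 3). The ranges of the late groups overlapped, and no early library reached any late one. In the deposited TPM, which divides by gene length, the nuclear sum was 20625 ± 1339 in late wild type and 19728 ± 741 in ORE50/ORC4. ORE50/ORC4 was thus slightly above wild type by counts and slightly below it by TPM, and the ranges overlapped on both scales.

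The 13 mitochondrial genes held 2.42% ± 0.332 in late wild type, 2.62% ± 0.146 in ORC4, 3.66% ± 0.422 in ORE50/ORC4 and 2.12% ± 0.454 in early wild type. The lowest ORE50/ORC4 library, at 3.16%, lay above the highest library of any other group, at 2.79%. Within wild type this share was higher in the shallower libraries. It was 2.14% to 2.22% in late wild type 1, 2 and 3 against 2.79% and 2.78% in replicates 5 and 6, and 1.86% in early replicates 1 and 3 against 2.65% in replicate 2.

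**Figure D1:**
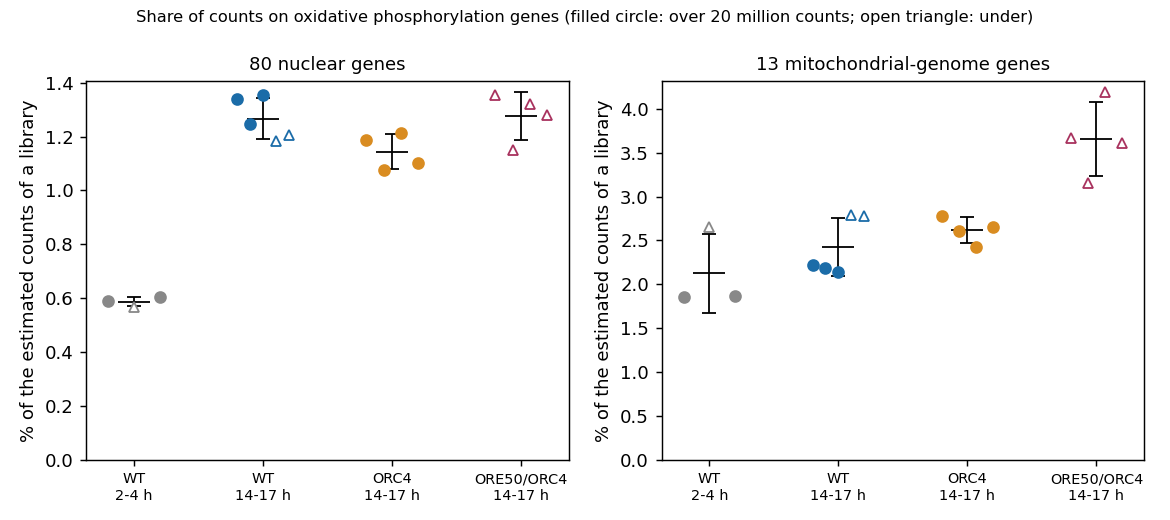
Share of each library's estimated counts (y axis, %) on the 80 nuclear genes (left) and the 13 mitochondrial-genome genes (right), by group (x axis); each point is 1 library, the bar is the mean ± SD, filled circles are libraries over 20000000 counts and open triangles are under it. The nuclear share is lowest at 2 to 4 h (mean 0.587%); the mitochondrial share is highest in ORE50/ORC4 (mean 3.66%), and within each wild-type group the triangles lie above the circles on the right.

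Late wild type shows how far the genes moved between depth classes at a single genotype and age. In replicates 5 and 6, 11 of 12 mitochondrial genes tested lay above all of replicates 1, 2 and 3, with a median log2 ratio of 0.47. Among all genes tested 25% lay above in this way and 23.6% below, and the median was -0.01. Of the 58 nuclear genes without copies, 8 lay above and 23 below, with a median of -0.08. The steepest were mt:ND4L and mt:ND6, at log2 ratios of 1.73 and 1.71, and mt:ND3 alone was lower, by 0.11. Whether these libraries also differ in handling is not stated in the labels.

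Compared per exonic kilobase, the mitochondrial messages mt:CoIII and mt:CoI stood highest. In late wild type, mt:CoIII reached 7932 ± 1072 normalised CPM per exonic kilobase, mt:CoI 5431 ± 1244, mt:Cyt-b 3227 ± 336, mt:CoII 2767 ± 292 and mt:ATPase6 2317 ± 205 (SD, n = 5). mt:CoIII, mt:CoI and mt:CoII encode the core of cytochrome c oxidase, mt:Cyt-b the cytochrome b of complex III, and mt:ATPase6 the proton channel subunit of ATP synthase. The highest nuclear genes were ATPsynC, the c-ring of the rotor, at 924 ± 64.9, and ATPsynbeta, the catalytic subunit, at 899 ± 49.0. These overlapped with mt:ND1, a complex I subunit, at 908 ± 317.

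At the other end of the mitochondrial set stood mt:ND2 (10.9), mt:ND4L (3.98) and mt:ND6 (2.22 normalised CPM per exonic kilobase), all complex I subunits. mt:ATPase8 was listed at 0 in 14 of 16 libraries. It overlaps mt:ATPase6, and mt:ND4L overlaps mt:ND4 by their annotated ends. How the quantification split reads of such joined messages was not tested.

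Median levels of nuclear genes without copies in late wild type were 96.9 normalised CPM per exonic kilobase for complex I, 148 for complex III, 288 for complex IV and 282 for ATP synthase. The early medians were 52.7, 72.7, 182 and 186 in the same order. On this per-length scale the highest nuclear member outside the copies was ND-MLRQ in complex I (382), UQCR-14 in complex III (288), COX7B in complex IV (450.2) and ATPsynC in ATP synthase. By the deposited TPM the order differed, and ND-SGDH, UQCR-14, COX5A and ATPsynbeta came first. UQCR-14 (0.51 ± 0.10) and COX5A (0.66 ± 0.13) rose between the ages on the log2 scale, and neither was called in either mutant against wild type. UQCR-14 overlaps CG32576 and had fractional counts in all 16 libraries. ND-MLRQ overlaps mir-4942, spans 12.3 times its exonic length and had fractional counts in 15 libraries, so its rank is uncertain. Complex I thus had the lowest median at both ages. ND-B8, a small complex I subunit, was near 0 in every group (at most 0.199 per exonic kilobase on average), and it lies over the span of another gene, Gs1l.

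**Figure D2:**
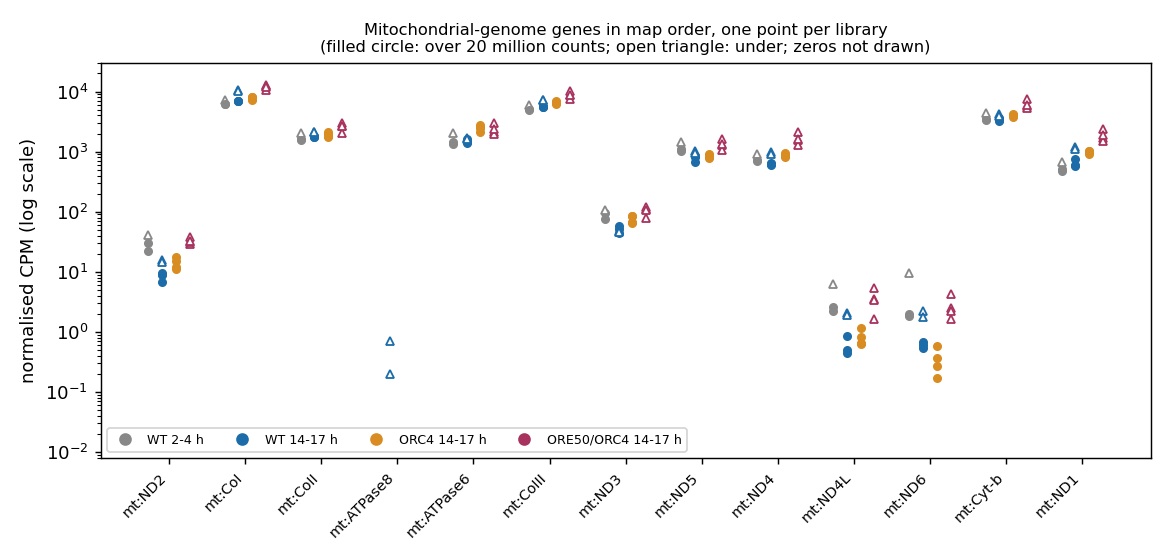
Normalised CPM (y axis, log scale) of the mitochondrial-genome genes in map order (x axis); each point is 1 library, colours are groups, filled circles are libraries over 20000000 counts and open triangles are under it, and zeros are not drawn. mt:CoI and mt:CoIII lie highest, mt:ND4L and mt:ND6 lie near 1 normalised CPM, and most ORE50/ORC4 points lie above those of late wild type.

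Between 2 to 4 h and 14 to 17 h, nearly all nuclear subunits rose in wild type, and by sizes that differed widely within each complex. Of 58 nuclear genes without copies that were tested, 53 were higher and 1 lower at 14 to 17 h (edgeR quasi-likelihood test, Benjamini-Hochberg adjusted p under 0.05 over all genes). The background was high: 48.1% of all 11636 genes tested were higher and 41.8% lower. Every late library lay above every early one for 51 of the 58, beside 46.6% of all genes, and below for 1, beside 41%. The median log2 fold change was 0.81, beside 0.18 for all genes. By complex it was 0.87 for complex I, 1.06 for complex III, 0.65 for complex IV and 0.76 for ATP synthase, and all 11 ATP synthase genes and all 8 complex IV genes were called higher.

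The largest nuclear fold changes were in complex III. UQCR-6.4, a small subunit, had 11.9 to 13.2 normalised CPM in the early libraries and 79.0, 69.8, 77.3, 57.5 and 61.9 in the late ones. The log2 fold change was 2.47 ± 0.13 (SE, adjusted p = 4.89e-08, edgeR). UQCR-C2, a core protein of complex III, rose by 2.38 ± 0.15 (adjusted p = 1.46e-07), from 64.1, 41.6 and 61.1 to 272, 271, 310.4, 282 and 291. For both genes the groups were far apart. UQCR-6.4 overlaps POSH and had fractional counts in 15 libraries, so some of its reads were shared out between genes.

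ATPsyngamma, the central stalk that turns within ATP synthase, rose by 2.20 ± 0.13 on the log2 scale (adjusted p = 8.82e-08, edgeR), from 88.4, 64.2 and 90.4 normalised CPM to 342 to 385. ND-51, the NADH-binding subunit of complex I, rose by 2.18 ± 0.10 (adjusted p = 1.83e-08), from 45.3 ± 5.11 to 201 ± 9.74. COX7A, a small subunit of complex IV, rose by 2.02 ± 0.11, and ATPsynC by 1.98 ± 0.11. In each, every late library exceeded every early one. ATPsynbeta rose by 1.65 ± 0.09 from 695 ± 24.3 to 2145 ± 117, so the subunits of one complex did not rise by one factor. The smallest rise called in complex IV was that of COX5B, a subunit on the matrix side, at 0.25 ± 0.09 (adjusted p = 0.0272). That call was lost without late replicate 1 or 3, or without early replicate 2 or 3 (adjusted p 0.0519 to 0.0935).

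A few subunits did not follow. ND-AGGG, a small membrane subunit of complex I, had 53.3, 58.6 and 50.5 normalised CPM in early libraries and 29.1, 33.7, 31.4, 21.6 and 22.7 in late ones. It was lower at the late age by a log2 fold change of -0.93 ± 0.15 (adjusted p = 0.000196, edgeR), with no overlap. Not called were ND-30 (log2 fold change 0.02 ± 0.12), ND-42 (-0.06 ± 0.11), ND-B18 (0.31 ± 0.13, adjusted p = 0.0509) and UQCR-11 (-0.08 ± 0.13). ND-30 is a core subunit of the arm of complex I that reaches into the matrix, and its mean was 93.7 ± 19.1 early and 93.5 ± 3.68 late.

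Mitochondrial messages showed no shared direction between the ages. Of 12 tested, 5 were lower at 14 to 17 h and 1 higher, with a median log2 fold change of -0.03. The share lower, 41.7%, was about that of all genes (41.8%), and the share higher was below the 48.1% of all genes. Those lower were mt:ND2 (-1.48 ± 0.29), mt:ND3 (-0.86 ± 0.13), mt:ND4L (-1.78 ± 0.56), mt:ND5 (-0.43 ± 0.15) and mt:ND6 (-2.03 ± 0.67), all of complex I. mt:ND1, also of complex I, was higher (0.65 ± 0.27, adjusted p = 0.0431, edgeR). The count lower was 2 without early replicate 2, where mt:ND6 (-0.84 ± 0.56), mt:ND4L (-1.16 ± 0.58) and mt:ND5 (-0.28 ± 0.15) were not called (adjusted p = 0.185, 0.0905 and 0.106, edgeR). mt:ND5 was not called with DESeq2 (adjusted p = 0.0548), and the mt:ND1 call was lost without late replicate 5 or 6 or early replicate 1 or 3.

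Among the deeper wild-type libraries only (late 1, 2 and 3, early 1 and 3), 6 were lower and 3 higher. Of all 11733 genes tested there, 5058 were lower and 5570 higher. mt:ND4 joined those lower (-0.18 ± 0.06) and mt:CoI (0.19 ± 0.06) and mt:CoIII (0.19 ± 0.06) those higher. mt:ND3 shows the levels: 94.7, 108 and 74.5 normalised CPM early, and 44.0, 58.6, 51.0, 48.4 and 46.3 late. Its late values spread little across the depth classes.

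**Figure D3:**
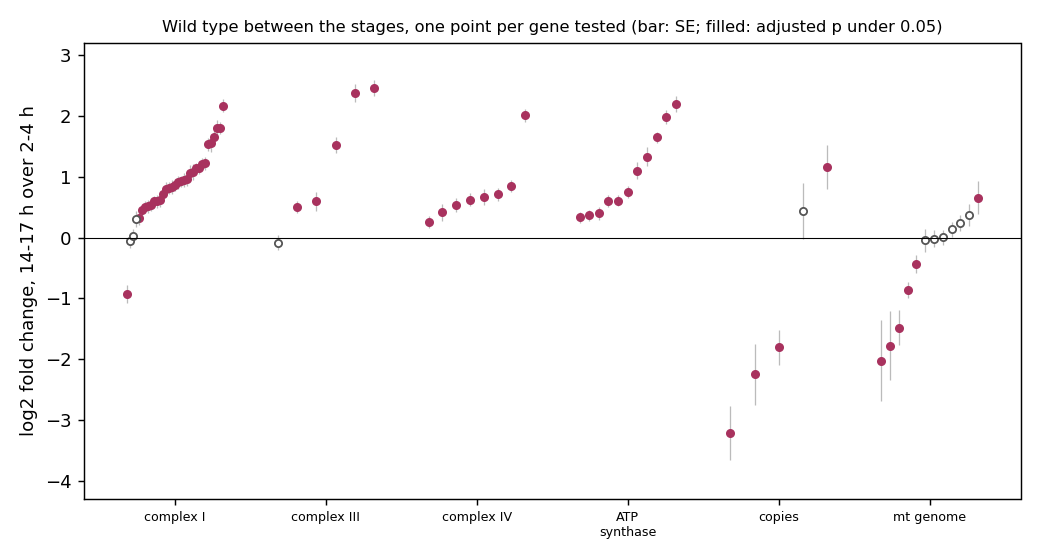
Log2 fold change of wild type at 14 to 17 h over 2 to 4 h (y axis) for each gene tested, grouped by nuclear complex, additional copies and mitochondrial genome (x axis); bars are SE and filled points have adjusted p under 0.05 (edgeR). All but 3 of the 58 nuclear points outside the copies lie above 0, while the mitochondrial points lie on both sides.

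The rise ran alongside markers of muscle, neurons and midgut and a fat body list. The summed level of 9 muscle markers was 280.0 normalised CPM on average at 2 to 4 h (157 to 419.6) and 45554 at 14 to 17 h (44351 to 47661). The 6 neuronal markers summed to 535 and 2091, and no muscle or neuronal marker was at 0 in either group. The 5 midgut markers summed to 1.36 early and 294 late. The fat body list (Lsp2, Fbp1, apolpp and Sgs3, a salivary gland glue gene) summed to 315 and 1909, with Sgs3 at 0 early. Markers of haemocytes did not rise, with mean sums of 233 early (199 to 259) and 215 late (206 to 220). The part of tissue composition in the rise was not tested. In bulk RNA, fewer cells of a type and less RNA per cell cannot be told apart.

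In ORC4 embryos nuclear subunits were mildly lower than in wild type of the same age. Of 58 nuclear genes without copies, 18 were called lower and 0 higher (33 of the 60 nuclear genes tested were lower and 1 higher at an unadjusted p under 0.05 in edgeR, and 24 lower and 1 higher with DESeq2). Among all 11431 genes tested, 17.2% were lower and 15.5% higher. Fitted values were below 0 for 56 of the 58, with a median log2 fold change of -0.18 beside 0.00 for all genes. Libraries did not overlap for 21, all lower, beside 16.4% of all genes.

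The count was sensitive to single libraries: 11 without ORC4 replicate 2 or 4, and 28 without ORE50/ORC4 replicate 2. Against wild type 1, 2 and 3 alone, the same depth class as ORC4, 16 nuclear genes were lower, beside 14.9% of all genes. Muscle marker sums were 37433 to 44794 in ORC4 against 44351 to 47661 in wild type, neuronal sums 1652 to 1906 against 1998 to 2206, and midgut sums 65.5 to 114 against 152 to 385. Sums of the fat body list overlapped wild type with a higher mean, at 2126 (1687 to 2864) against 1909 (1752 to 2225). Haemocyte sums also overlapped, at 198 to 214 against 206 to 220. The part of these markers in the lower nuclear genes was not tested.

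Complex I held most of these calls, 15 of its 33 tested genes, with 1 of 8 in complex IV, 2 of 11 in ATP synthase and 0 of 6 in complex III. The medians were close: -0.23 for complex I, -0.17 for complex III, -0.17 for complex IV and -0.18 for ATP synthase. Whether the complexes differed was not tested. All 6 complex III genes and all 11 ATP synthase genes were fitted below 0.

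COX5B of complex IV (2L:6557800-6559308, plus strand, dm6) was the nuclear member with the lowest fold change in both mutants. It had 170.2, 163, 182, 147 and 151 normalised CPM in late wild type and 93.3, 85.4, 91.2 and 82.2 in ORC4. The ORE50/ORC4 libraries had 116, 87.4, 115 and 106. Both mutants lay wholly below late wild type, and also below the early libraries (145, 129 and 143). The log2 fold change was -0.89 ± 0.09 in ORC4 (SE, adjusted p = 9.07e-06, edgeR) and -0.62 ± 0.09 in ORE50/ORC4 (adjusted p = 0.000118). Both calls stood in all 21 alternatives, with adjusted p at most 0.000574 and 0.00626. The other complex IV genes had fitted values from -0.23 to 0.01 in ORC4, and none of those passed the test. COX5B overlaps no other annotated gene and its counts were whole.

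ND-13B, an accessory subunit of the matrix arm of complex I (3L:10693184-10694108, minus strand, dm6), came next. Its levels were 74.6, 74.8, 84.7, 89.7 and 90.0 in late wild type and 54.6, 49.5, 57.1 and 46.0 in ORC4. The ORE50/ORC4 libraries had 70.7, 59.0, 78.5 and 67.3. ORC4 lay wholly below wild type, while ORE50/ORC4 overlapped it. The log2 fold changes were -0.67 ± 0.10 (adjusted p = 0.000177, edgeR) and -0.26 ± 0.10 (adjusted p = 0.0356). The ORC4 call stood in all 21 alternatives. The ORE50/ORC4 call stood in 13 of 21 and was lost without ORE50/ORC4 replicate 1, 2 or 4 or wild type 3, 5 or 6.

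ND-B17, a membrane-arm accessory subunit, was lower in ORC4, with a log2 fold change of -0.36 ± 0.07 (adjusted p = 0.00147, edgeR) and in ORE50/ORC4 by -0.22 ± 0.07 (adjusted p = 0.016). Its mean was 55.4 ± 2.97 normalised CPM in late wild type, 43.3 ± 3.43 for ORC4 and 47.6 ± 2.21 for ORE50/ORC4, with no overlap against wild type in either. Against wild type 5 and 6 alone, the ORE50/ORC4 value was -0.15 ± 0.10 and not called. ND-18, an accessory subunit near the NADH-binding module, was at -0.34 ± 0.08 in ORC4, and ND-B14.5A, another accessory subunit, at -0.33 ± 0.09. ND-75, which carries iron-sulfur clusters, was at -0.24 ± 0.05 in ORC4 and -0.15 ± 0.05 in ORE50/ORC4, with both groups wholly below wild type. Its ORE50/ORC4 call was lost within depth class and without ORE50/ORC4 1 or 3 or wild type 3, 5 or 6.

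ND-MWFE, a small membrane subunit of complex I, moved in opposite directions in the mutants. Its levels were 26.3, 23.1, 27.8, 22.4 and 21.2 in late wild type and 16.4, 15.2, 20.2 and 14.9 in ORC4. The ORE50/ORC4 libraries had 44.5, 25.8, 41.1 and 30.8. ORC4 lay wholly below wild type and wholly below ORE50/ORC4. The log2 fold changes were -0.54 ± 0.16 (adjusted p = 0.0184, edgeR) and 0.55 ± 0.15 (adjusted p = 0.00857), and 1.09 ± 0.16 between the mutants (adjusted p = 0.00035). Within depth class the values were -0.63 ± 0.18 and 0.71 ± 0.22, both called. The ORC4 call was lost without ORC4 replicate 2 or 4. ND-MWFE lies within the spans of TppII and Nrk and had fractional counts in all 16 libraries, so its value is uncertain.

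**Figure D4:**
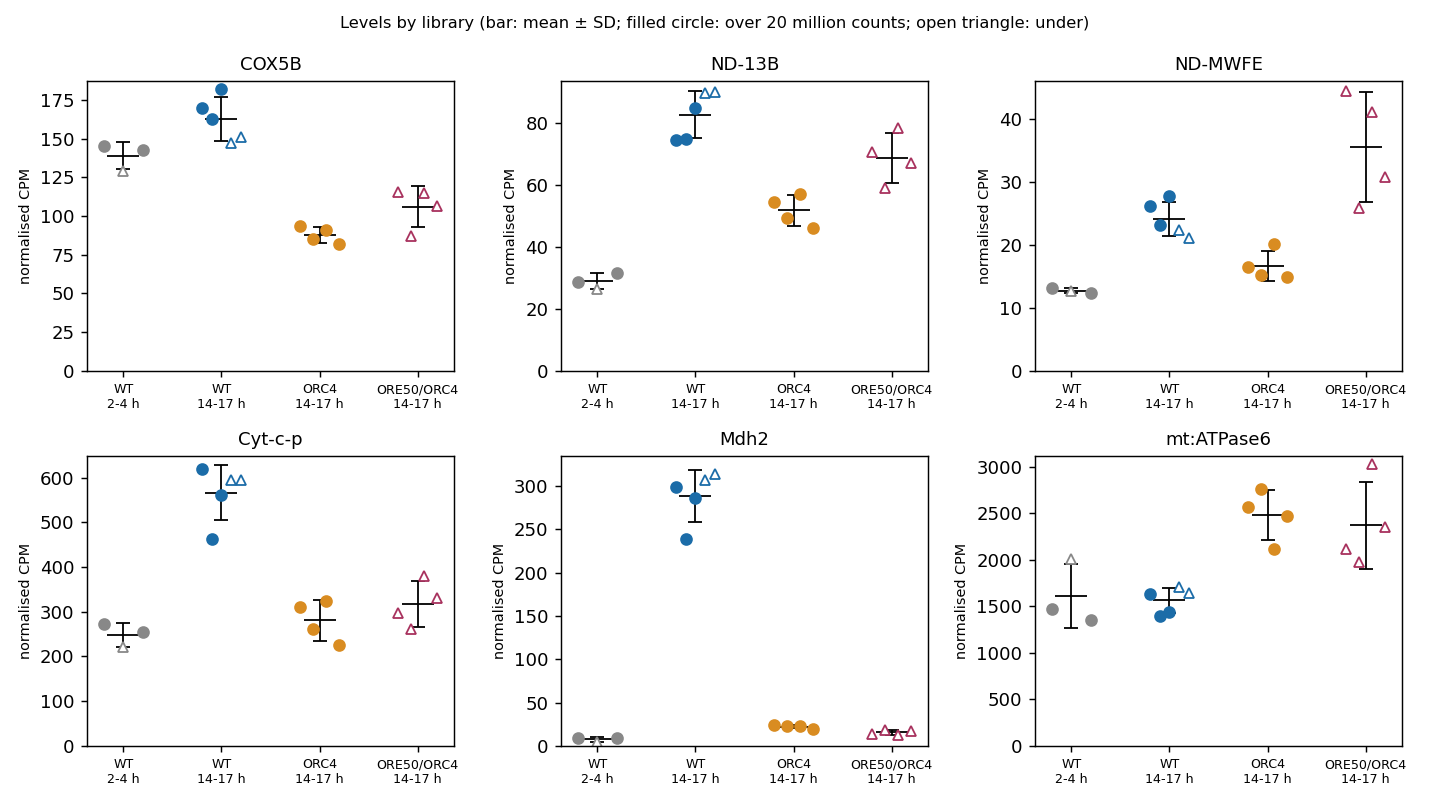
Normalised CPM (y axes, starting at 0) of COX5B, ND-13B, ND-MWFE, Cyt-c-p, Mdh2 and mt:ATPase6 by group (x axis); each point is 1 library, the bar is the mean ± SD, filled circles are over 20000000 counts and open triangles under. COX5B, Cyt-c-p and Mdh2 lie below late wild type in both mutants, ND-MWFE is low in ORC4 and high in ORE50/ORC4, and mt:ATPase6 is higher in both mutants.

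In ORE50/ORC4 the nuclear genes showed no common direction against wild type. Of 60 tested, 6 were lower and 10 higher, including 1 copy, while 27% of all genes were lower and 27% higher. The median log2 fold change without copies was 0.06, beside 0.01 for all genes. Those lower were COX5B, ND-13B, ND-B17, ND-75, UQCR-C2 (-0.18 ± 0.06) and ND-42 (-0.18 ± 0.07, adjusted p = 0.0495, edgeR). The highest rises outside the copies were those of ND-AGGG, ND-MWFE, ND-B14.5B (0.35 ± 0.11), ND-MLRQ (0.31 ± 0.09), ND-B17.2 (0.28 ± 0.10) and ND-13A (0.27 ± 0.08), all with complex I symbols. Within depth class ND-B17.2 (0.21 ± 0.13, adjusted p = 0.188, edgeR) and ND-13A (0.19 ± 0.10, adjusted p = 0.152) were not called. The ND-B14.5B call was lost without ORE50/ORC4 replicate 1, and the ND-B17.2 call without ORE50/ORC4 1 or 4 or wild type 2 or 3. The mammalian homologue of ND-MLRQ is now assigned to complex IV. ND-42 lost its call without any of 10 single libraries, UQCR-C2 without ORE50/ORC4 2, 3 or 4 or wild type 3 or 6, and neither was called within depth class. Complex I as a whole had 4 lower and 8 higher of 33, and ATP synthase 0 of 11 in either direction.

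Both counts shifted when single libraries were left out. The number higher was 6 without ORE50/ORC4 replicate 1 and 18 without replicate 2. The number lower was 3 without ORE50/ORC4 replicate 1 or 3 or wild type 5, and 2 without wild type 3 or 6. Against wild type 5 and 6 alone, 2 were lower (COX5B at -0.49 ± 0.12 and ND-13B at -0.38 ± 0.12) and 7 higher, beside 25.8% and 24.9% of all genes.

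ND-AGGG, the complex I subunit that fell between the ages, was higher in ORE50/ORC4. Its libraries there had 55.6, 39.4, 40.9 and 38.9 normalised CPM, against 30.7, 31.4, 30.9 and 27.8 in ORC4 and 21.6 to 33.7 in late wild type. All 4 lay above every late library of the other groups, and 1 of them lay within the early range of 50.5 to 58.6. The log2 fold change against wild type was 0.65 ± 0.14 (adjusted p = 0.00194, edgeR), past the threshold in all 21 alternatives, and 0.99 ± 0.16 within depth class. ND-AGGG had fractional counts in all 16 libraries though no annotated gene overlaps it.

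Between the mutants, 32 of 60 nuclear genes were higher in ORE50/ORC4 and 0 lower, beside 19.9% and 17.4% of all genes. No nuclear gene was lower at an unadjusted p under 0.05 or with DESeq2. The median log2 fold change without copies was 0.24, beside 0.03 for all genes, and complex I held 22 of the calls. The groups did not overlap for 22 genes, beside 18.3% of all genes. Among the genes without copies ND-MWFE differed most, followed by ND-AGGG (0.54 ± 0.15), ND-SGDH (0.48 ± 0.08), ND-B14 and ND-B14.5B (both 0.47, SE 0.07 and 0.12) and ND-13A (0.46 ± 0.08). With depth class as a covariate, which only the wild-type libraries inform, 17 were higher.

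**Figure D5:**
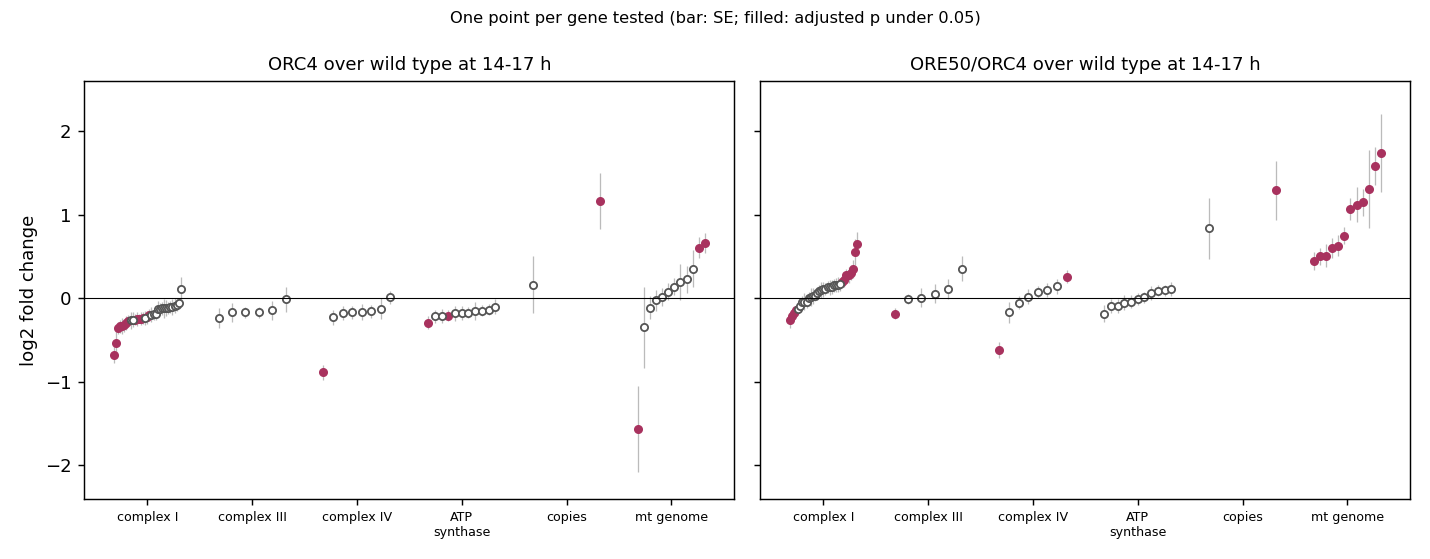
Log2 fold change over late wild type (y axis) for each gene tested in ORC4 (left) and ORE50/ORC4 (right), grouped by nuclear complex, copies and mitochondrial genome (x axis); bars are SE and filled points have adjusted p under 0.05 (edgeR). The nuclear points of ORC4 lie mostly just below 0, with a median of -0.18 without copies, those of ORE50/ORC4 straddle 0, and all 12 mitochondrial points of ORE50/ORC4 lie above 0; the same wild-type libraries enter both panels.

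Mitochondrial messages were higher in ORE50/ORC4 than in wild type, in all 12 genes tested, beside 27% of all genes. The median log2 fold change was 0.91, beside 0.01 for all genes. Against wild type 5 and 6 alone, a closely alike pair that shares its depth class, the median was 0.56, beside 0.03 for all genes. There 8 of 12 were called higher, beside 24.9% of all genes. These were mt:ND3 (1.15 ± 0.17), mt:ND2 (1.11 ± 0.19), mt:ND4 (0.82 ± 0.16), mt:ND1 (0.67 ± 0.15), mt:Cyt-b (0.62 ± 0.12), mt:ATPase6 (0.50 ± 0.16), mt:ND5 (0.44 ± 0.14) and mt:CoIII (0.31 ± 0.11). Not called within depth were mt:CoI (0.19 ± 0.09), mt:CoII (0.29 ± 0.13), mt:ND4L and mt:ND6. The summed fat body list (Lsp2, Fbp1, apolpp and Sgs3) was also higher, at 2474 to 3475 normalised CPM against 1752 to 2225, with no marker of the list at 0. Sgs3 is a salivary gland glue gene. The share of each gene in that sum was not examined, so it is not a readout of fat body alone. Neuronal sums, at 1387 to 1819 against 1998 to 2206, and midgut sums, at 97.3 to 130.1 against 152 to 385, lay wholly below wild type. Muscle sums, at 40409 to 46995 against 44351 to 47661, and haemocyte sums, at 190 to 233 against 206 to 220, overlapped wild type. The part of these markers in the nuclear and mitochondrial values of ORE50/ORC4 was not tested.

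mt:Cyt-b and mt:ND2 show the levels by library. mt:Cyt-b had 5837, 5234, 7550.4 and 6008 normalised CPM in ORE50/ORC4 against 3679.5, 3286, 3305, 4167 and 3909 in late wild type. mt:ND2 ranged from 28.7 to 37.6 in ORE50/ORC4 against 6.76, 9.61, 8.78, 15.7 and 14.7. Neither gene's groups overlapped, also against the shallower wild-type libraries, which come last in each wild-type list. In ORE50/ORC4, 8 of 12 genes lay wholly above all 5 wild-type libraries, beside 21.5% of all genes.

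In ORC4 fewer mitochondrial messages differed against all late wild-type libraries, where 2 of 12 were higher and 1 lower. Of all genes 15.5% were higher and 17.2% lower, so these counts were near or below the background. That wild-type pool mixed depth classes, while every ORC4 library was of the deeper class. Against wild type of the same depth class, 5 of 12 were higher and 0 lower, beside 15.6% and 14.9% of all genes. There 11 of 12 were fitted above 0, and the median log2 fold change was 0.32, beside -0.01 for all genes. mt:ATPase6 had 2574, 2766, 2119.9 and 2474 normalised CPM, against 1631, 1394, 1440.3, 1707 and 1648 in late wild type and 2119, 1980.3, 3029 and 2353 in ORE50/ORC4. Both mutants lay wholly above wild type. The log2 fold change was 0.67 ± 0.12 in ORC4 (adjusted p = 0.000975, edgeR) and 0.60 ± 0.12 in ORE50/ORC4 (adjusted p = 0.00105), and both calls stood in all 20 alternatives. mt:ATPase6 shares its annotated ends with mt:ATPase8 and mt:CoIII.

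mt:ND3 was higher in ORC4, with a log2 fold change of 0.61 ± 0.13 (adjusted p = 0.00292, edgeR), with 84.0, 84.8, 68.3 and 65.5 normalised CPM against 44.0 to 58.6 in wild type. mt:ND6 was lower, by -1.57 ± 0.52 (adjusted p = 0.0335), with 0.269, 0.371, 0.174 and 0.585 against 0.683, 0.601, 0.549, 2.20 and 1.79. The mt:ND6 call was lost without ORC4 replicate 1, 2 or 3 or wild type 5 or 6. Against wild type 1, 2 and 3 alone it was -0.80 ± 0.42 and not called, and 5 genes were higher: mt:ATPase6 (0.73 ± 0.14), mt:ND2 (0.72 ± 0.18), mt:ND1 (0.60 ± 0.15), mt:ND3 (0.56 ± 0.16) and mt:ND4 (0.50 ± 0.13).

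Between the mutants 11 of 12 mitochondrial genes were higher in ORE50/ORC4, beside 19.9% of all genes, and mt:ATPase6 was not called (-0.07 ± 0.13). With depth class as a covariate 0 were called, and 2 had an unadjusted p under 0.05 (edgeR): mt:ND3 (0.57 ± 0.23) and mt:Cyt-b (0.37 ± 0.16). DESeq2, without that covariate, called 11 higher. Each mutant lies in 1 depth class, so genotype and depth cannot be told apart here.

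The mitochondrial large ribosomal RNA, mt:lrRNA, was not called in either mutant. It held 5.17% ± 0.849 of counts in late wild type, 5.07% ± 0.457 for ORC4 and 6.26% ± 0.747 for ORE50/ORC4. Of 12 genes that copy and express the mitochondrial genome, 1 was lower and 1 higher in ORC4, beside 17.2% and 15.5% of all genes. In ORE50/ORC4 1 was lower and 2 higher, beside 27% of all genes in each direction. PolrMT, the mitochondrial RNA polymerase, was at -0.26 ± 0.08 in ORE50/ORC4 (adjusted p = 0.0102, edgeR). TFAM, which packages mitochondrial DNA, fell between the ages by a log2 fold change of -1.44 ± 0.10 and was not called in either mutant.

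The 21 additional copies were barely detected. Of them, 8 were listed at 0 in all 16 libraries and 14, with those 8 among them, held at most 3 counts in every library. A limit of 3 counts equals 0.0922 to 0.332 CPM across libraries, for counting error only. The highest value of any copy in any library was 2.04 normalised CPM, for ATPsynepsilonL in ORC4. The copies made up 0.0124% ± 0.00346 of nuclear member counts in late wild type and 0.0489% ± 0.00661 in early wild type.

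Of the copies, 7 exceeded 3 counts in some library: ATPsynbetaL, ATPsynepsilonL, COX4L, COX6AL2, COX7AL, COX7AL2 and COX7CL. Between the ages ATPsynbetaL (-2.25 ± 0.50), COX4L (-1.81 ± 0.29) and COX7AL (-3.22 ± 0.44) were lower, opposite to ATPsynbeta, COX4 and COX7A, while ATPsynepsilonL was higher (1.17 ± 0.36). ATPsynepsilonL had 1.65, 2.04, 1.04 and 1.17 normalised CPM in ORC4 against 0.467 to 0.994 in late wild type (log2 fold change 1.16 ± 0.33, adjusted p = 0.0178, edgeR), a call lost without ORC4 replicate 2. COX4L was higher in ORE50/ORC4 (1.29 ± 0.35, adjusted p = 0.00728, past the threshold in 15 of 17 alternatives), at 0.576, 0.597, 0.795 and 0.372 against 0.183 to 0.300. The copies resemble their parent genes, so a few misassigned reads would weigh on these low values, and that was not tested.

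The 7 subunits outside the symbol rule were blw (the alpha subunit of ATP synthase), sun (its epsilon subunit), levy and cype of complex IV, and Cyt-c1, RFeSP and ox of complex III. All 7 rose between the ages, beside 48.1% of all genes. In ORC4, 5 of 7 were lower, beside 17.2% of all genes: blw (-0.25 ± 0.07), sun (-0.27 ± 0.09), Cyt-c1 (-0.25 ± 0.07), RFeSP (-0.19 ± 0.07) and ox (-0.85 ± 0.28). In ORE50/ORC4 blw was lower (-0.21 ± 0.07) and ox higher (0.93 ± 0.27), beside 27% of all genes in each direction. ox followed depth within wild type, at 25.8, 25.9 and 29.8 normalised CPM in replicates 1, 2 and 3 and 64.0 and 56.2 in 5 and 6, and neither ox call stood within depth class (adjusted p = 0.175 and 0.168, edgeR). ox overlaps mRpL18. Within depth class blw, Cyt-c1 and RFeSP were not called in ORC4 either. There 1 of 7 was lower (14.3%), about the share of all genes (14.9%). The sun call in ORC4 was lost without ORC4 2 or 4 or wild type 1 or 3.

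Complex II, succinate dehydrogenase, is encoded wholly in the nucleus and also belongs to the citric acid cycle. In ORC4, SdhA (-0.31 ± 0.05, adjusted p = 0.000763, edgeR), SdhB (-0.24 ± 0.08) and SdhD (-0.27 ± 0.07) were lower, 3 of 5 genes tested, beside 17.2% of all genes. Within depth class 2 of 5 were lower, beside 14.9% of all genes. The SdhB call was lost within depth class and without ORC4 2 or 4 or wild type 1, 3, 5 or 6. None passed in ORE50/ORC4 (SdhA -0.13 ± 0.05, adjusted p = 0.0567), though SdhB did within depth class (-0.26 ± 0.10, adjusted p = 0.0436). SdhA, SdhB, SdhC and SdhD rose between the ages by 1.10 to 1.94 on the log2 scale, and SdhBL, a low copy of SdhB, fell by 1.74.

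The message of the mobile electron carrier was lower in both mutants. Cyt-c-p, the cytochrome c that carries electrons from complex III to complex IV, had 618, 463, 562, 594 and 595 normalised CPM in late wild type and 309.7, 262, 325 and 225 in ORC4. The ORE50/ORC4 libraries had 296, 261, 380.1 and 331. Both mutants lay wholly below wild type, near the early libraries (273, 220.0 and 254). The log2 fold changes were -1.01 ± 0.13 (adjusted p = 6.89e-05, edgeR) and -0.84 ± 0.13 (adjusted p = 0.000187), and both stood in all 21 alternatives. Cyt-c-d, the other cytochrome c gene, averaged 1.17 to 1.58 normalised CPM at the late age and was not called in either mutant.

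A list of the citric acid cycle, which supplies NADH, also held the pyruvate dehydrogenase genes Pdha, Pdhb and muc, which feed the cycle. Of the 13 matched genes of this joint list, 10 were lower in ORC4, and 9 were lower and 1 higher in ORE50/ORC4. Of all genes 17.2% were lower in ORC4, and 27% were lower and 27% higher in ORE50/ORC4. Within depth class 5 were lower in ORC4 (Mdh2, kdn, Pdhb, Idh3a and Idh3b), beside 14.9% of all genes. In ORE50/ORC4 8 were then lower and 1 higher, beside 25.8% and 24.9% of all genes. Mdh2, the mitochondrial malate dehydrogenase, had 299, 239, 286, 308 and 314 normalised CPM in late wild type, 23.5, 23.0, 23.1 and 19.4 in ORC4, 13.7, 18.5, 12.8 and 17.4 in ORE50/ORC4, and 9.17, 4.49 and 9.50 at 2 to 4 h. The log2 fold changes were -3.70 ± 0.13 (adjusted p = 6.39e-10, edgeR) in ORC4 and -4.20 ± 0.13 (adjusted p = 2.78e-10) in ORE50/ORC4. kdn, citrate synthase, was at -0.61 ± 0.09 and -0.74 ± 0.09, with both mutants wholly below wild type. Mdh2, kdn and Cyt-c-p overlap no other annotated gene.

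Mitochondrial ribosomal protein genes gave another pattern. Of 71 tested, 48 were higher and 1 lower in ORE50/ORC4, with a median log2 fold change of 0.31, beside 27% of all genes in each direction. In ORC4 9 were lower and 3 higher, with a median of -0.06, shares below the 17.2% and 15.5% of all genes. Within depth class, 52 of 72 were higher and 0 lower in ORE50/ORC4, beside 24.9% and 25.8% of all genes. In ORC4 11 of 71 were then lower (15.5%) and 3 higher (4.23%), beside 14.9% and 15.6% of all genes. Of the activators of mitochondrial genes in the list, srl, the fly PGC-1 homologue, was lower in both mutants (-0.35 ± 0.11, adjusted p = 0.0228, and -0.42 ± 0.11, adjusted p = 0.00596, edgeR). Within depth class the srl call stood in ORC4 (-0.47 ± 0.11) and was lost in ORE50/ORC4 (-0.23 ± 0.13, adjusted p = 0.148). ewg, the fly homologue of NRF-1, was higher in both (0.27 ± 0.07 and 0.28 ± 0.07), but within depth class it was not called in ORC4 (0.17 ± 0.07, adjusted p = 0.0656, edgeR) and was at 0.43 ± 0.08 in ORE50/ORC4. Ets97D, the homologue of a GA-binding protein subunit, was higher in ORE50/ORC4 (0.40 ± 0.12), also within depth class (0.60 ± 0.16). Both mutants were compared with the same wild-type libraries, so their values are not independent of each other.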

How the data were processed

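Per the labels' protocols, RNA of dechorionated embryos passed repeated oligo(dT) selection, was fragmented and made into Illumina libraries. The submitters' processing notes name CASAVA 1.8.2, kallisto and the dm6 assembly. For each library the authors deposited kallisto-style estimated counts and TPM of 17753 genes beside gene lengths. Strand, annotation and index are not given in the sources used here. Symbols, positions and exons came from an Ensembl annotation of dm6, which matched 17625 genes (99.3%). The deposited length of all 93 members equalled the gene span with introns, so reads over an overlapping gene (48 members have one) can fall to either, and levels between genes were compared per exonic kilobase.

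After rounding, the estimated counts were tested with edgeR 4.0.16 in R 4.3.3, using TMM scaling, filterByExpr (minimum count 10, by group), the quasi-likelihood test and Benjamini-Hochberg adjustment over all genes with a threshold of 0.05. The 13 late libraries shared one fit and the 8 wild-type libraries another, with no covariate. SE is the log2 fold change over the square root of F. In the late fit 60 of the 80 nuclear members (58 of 59 without copies, 2 of 21 copies) and 12 of the 13 mitochondrial members passed the filter, and in the stage fit 63 and 12. Normalised CPM used TMM factors over all 16 libraries. Libraries of one group were checked for duplicates by chi-square per degree of freedom over genes. It ran from 5.45, between late wild type 5 and 6, to 118, and every library counted separately.

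Named were all mitochondrial members, up to 6 nuclear members per direction and comparison with adjusted p under 0.05 and a mean of at least 100 counts in the higher group, ranked by fold change, the most abundant member per complex, the L copies and the chain subunits outside the symbol rule. ATPsynepsilonL, COX6AL2, COX7AL2, ND-30, ND-B18, UQCR-11, ND-B8, Mdh2, kdn, srl, ewg, PolrMT, TFAM, Ets97D and the depth-sensitive calls were chosen after their values were seen. Members and gene lists were chosen with earlier results of these data known. No gene or protein sequence was used here.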

Additional observations from a re-analysis of the deposited data

Results flagged for a closer look

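In 3 of 152 groups of 4 or 5 libraries, 1 library stood far from the others of its group, by Dixon's 95% limit on the gap over the range. Chance alone flags about 1 group in 20. ND-AGGG was at 55.6 normalised CPM in ORE50/ORC4 replicate 1, against 38.9, 39.4 and 40.9 in the others. ND-B14, a complex I subunit, was at 55.9 in ORE50/ORC4 replicate 2, against 62.6, 63.4 and 63.6. RFeSP, the Rieske iron-sulfur protein of complex III, was at 189 in ORC4 replicate 3, against 172, 173 and 174.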

How the results depend on the processing

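Over single members, 124 called results were recomputed under 2343 alternatives, of which 2079 kept their side of the threshold and 264 lost it. None of these changed direction. Calls on other genes, such as Mdh2 and COX4L, were not in this count. The causes of the shifts were not tested. Mitochondrial genes lower in ORC4 went from 1 to 0 with the depth covariate, with wild type of the same depth class and with the replicate block. Those higher in ORC4 went from 2 to 5 with the covariate or the same depth class, 7 with the block and 6 in the same libraries without it. Against ORC4, ORE50/ORC4 had 11 mitochondrial genes higher, and 0 with the covariate. Its 32 nuclear genes higher became 17 with the covariate, 17 with the block and 20 in the same libraries without it. Against wild type, its 6 nuclear genes lower became 3 with the covariate and 2 with the same depth class, with the block or in the same libraries without it, and its 10 higher became 4 with the block and 2 in the same libraries without it. The mitochondrial gene higher between the stages went from 1 to 0 with RLE scaling, with the block and in the same libraries without it, and to 3 with the covariate or the deeper libraries only. The alternatives with the covariate against wild type and between the stages, and the deeper libraries only, were chosen after seeing the data.

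Leaving out 1 library at a time gave 11 to 28 nuclear genes lower and 0 to 1 higher in ORC4, with 0 to 1 mitochondrial genes lower and 2 higher. It gave 2 to 6 nuclear lower, 6 to 18 nuclear higher and 11 to 12 mitochondrial higher in ORE50/ORC4 against wild type, and 23 to 45 nuclear and 11 mitochondrial higher against ORC4. Between the stages it gave 51 to 55 nuclear higher, 4 to 5 nuclear lower, 2 to 5 mitochondrial lower and 0 to 2 mitochondrial higher. RLE scaling, DESeq2 1.42.0, no filter and nuclear genes only kept the other counts within 1.5 times. Same-numbered libraries did not all deviate together (correlations of deviations from -0.10 to 0.33 between same-numbered libraries), so replicate numbers were not taken as pairing.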
